A study of Homo sapiens with 12 samples.

Results

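ISG15 is a small protein made of 2 ubiquitin-like folds that cells attach to other proteins, a modification called ISGylation. Described here are 7 genes of this system and its surroundings, taken from a fixed list of names: ISG15, UBA7, UBE2L6, HERC5, HERC6, USP18 and ISG20. Each was looked for among the array rows that carry 1 gene symbol, and 6 of the 7 were found, 1 row each, among 14432 such rows and 22011 rows in all. USP18 had no row of its own. The only row with its symbol, row 3936550, is annotated to more than 1 gene and is not counted as USP18.

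Attachment of ISG15 runs through a chain of enzymes like that of ubiquitin. UBA7 is the activating enzyme (E1), UBE2L6 the conjugating enzyme (E2), HERC5 the main human ligase (E3), and HERC6 a close relative of HERC5 that serves as the main ligase in mice. USP18 removes ISG15 again and also dampens the type I interferon receptor by binding its IFNAR2 chain. ISG20 is an exonuclease that degrades RNA; it shares interferon control and a name with ISG15 but is not part of the conjugation chain. Type I interferon switches these genes on through transcription factors that bind an element known as the interferon-stimulated response element (ISRE).

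All samples were of HEK293, a long-established line from human embryonic kidney, grown for 24 hours, transfected by lipofection and taken 48 hours later, when living cells with GFP signal were sorted for 20 minutes per sample. The 4 groups of 3 biological replicates were nuclear GFP in pcDNA5/TO (the control, called GFP below), full-length MED12 with an N-terminal nuclear GFP tag in the same vector, the same fusion lacking the C-terminal PQL and Opa domains of MED12 (PQL/Opa-deleted), and MED12 shRNA 5 driven by the H1 promoter from peGFP-C1 (the hairpin). MED12 belongs to the kinase module of Mediator, the bridge between transcription factors and RNA polymerase II. The hairpin group differs from GFP in vector as well as in hairpin and there are 0 groups with a control hairpin, so effects of MED12 loss, of the hairpin RNA and of the vector cannot be told apart.

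The promoters are shown first, because their letters do not depend on the array values. The genes listed are ones that interferon switches on, so ISRE matches among them describe the list and are not independent of its choice. The ISRE letters GAAANNGAAA, in which N is any base, were searched on both strands of the 250 bases before the RefSeq start site of each gene (build GRCh38.p14); overlapping matches were each counted. Promoter windows were found for 5 of the 7 genes, UBA7 and USP18 being the others. A match was present in 3 of these 5 genes, against 3.71% of 27305 genes with a window (3.02% of 35116 windows, as some genes have several). In the windows below, written 5′ to 3′ on the gene's strand, capitals mark the matched letters. They are those of ISG15 at chr1:1013247-1013496 (plus strand), HERC5 at chr4:88456869-88457118 (plus strand) and ISG20 at chr15:88638766-88639015 (plus strand).
ISG15: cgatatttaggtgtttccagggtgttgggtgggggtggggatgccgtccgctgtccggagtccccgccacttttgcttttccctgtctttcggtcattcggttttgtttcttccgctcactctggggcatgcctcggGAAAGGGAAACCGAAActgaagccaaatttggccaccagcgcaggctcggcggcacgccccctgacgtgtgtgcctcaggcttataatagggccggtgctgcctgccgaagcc
HERC5: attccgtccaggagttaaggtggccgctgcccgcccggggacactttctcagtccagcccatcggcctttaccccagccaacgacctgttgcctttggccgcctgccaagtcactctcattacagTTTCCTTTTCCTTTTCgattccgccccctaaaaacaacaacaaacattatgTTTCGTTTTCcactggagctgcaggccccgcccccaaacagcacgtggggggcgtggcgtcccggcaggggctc
ISG20: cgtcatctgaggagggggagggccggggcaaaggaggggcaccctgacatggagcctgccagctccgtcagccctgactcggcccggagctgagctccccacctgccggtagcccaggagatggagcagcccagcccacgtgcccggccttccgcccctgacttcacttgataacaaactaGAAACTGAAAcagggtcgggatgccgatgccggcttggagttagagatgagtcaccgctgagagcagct

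ISG15 held 2 overlapping matches on its own strand, starting at -113 and -107 from the start site. HERC5 held 3 on the opposite strand, starting at -125, -119 and -74, the first 2 of them overlapping. ISG20 held 1 on its own strand, at -69. Neither of the 2 windows of UBE2L6 nor that of HERC6 held these letters, which says nothing about binding outside the window or to other letters. HERC5 and HERC6 are next to each other among the coding genes of chromosome 4, yet differed in this feature.

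**Figure D1:**
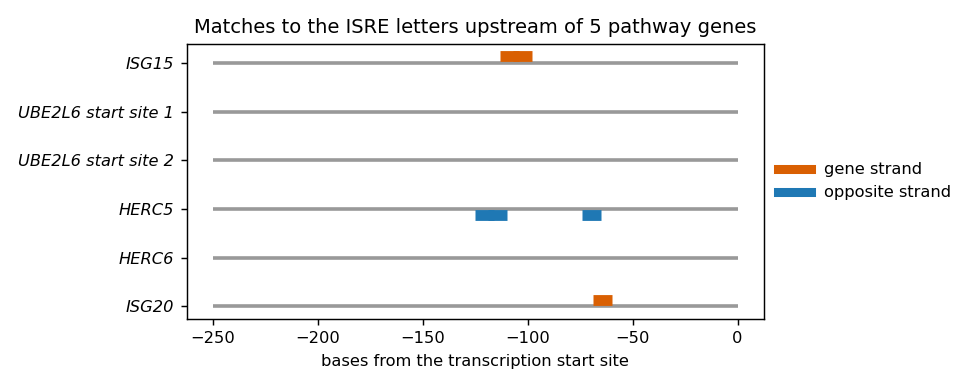
Positions of ISRE letter matches (bars) in the 250 bases before each start site (grey lines), in bases from the start site; UBE2L6 has 2 start sites in the table. Matches start between -125 and -69 in ISG15, HERC5 and ISG20, and the windows of UBE2L6 and HERC6 have none.

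The deposited values are log2 values of 1-colour arrays, 1 per row and array, and differences were tested with limma over all 22011 rows with Benjamini-Hochberg adjustment; a row is called when its adjusted p is under 0.05. Medians of the arrays lay between 3.39 and 3.51, and the standard deviation over rows was 1.34, 1.40 and 1.45 in replicate 1 of the hairpin, GFP and PQL/Opa-deleted groups, the 3 narrowest arrays, against 1.47 to 1.60 in the others. MED12, the targeted gene, averaged 4.41 ± 0.34 with GFP, 10.68 ± 0.06 with full-length MED12, 8.92 ± 0.32 with the PQL/Opa-deleted construct and 3.67 ± 0.06 with the hairpin (SD, n = 3). The hairpin difference in MED12 was not called (limma, adjusted p = 0.730), although all 3 hairpin arrays lay below all 3 GFP arrays. The share of all rows that lay below in this way was not counted. Of 8 genes listed as typical of HEK293, 7 lay above the median row, as did 5 of 14 measured markers of other cells (APOA1, CD14, COL1A1, EPCAM and GFAP). Among the latter, the blood cell markers PTPRC, CD3E and CD14 averaged 1.97, 2.22 and 3.47, and CLEC4C and LILRA4 of plasmacytoid dendritic cells, the classic interferon producers, 2.43 and 2.89. Probes of different genes differ in brightness and the files used here hold no detection calls, so these levels do not show which cells were present; over the arrays, the mean of the 14 other markers ran from 2.99 to 3.30 with GFP and from 3.03 to 3.29 with the hairpin.

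With the hairpin, the mean of each of the 6 measured genes lay above its GFP mean, and none of the differences was called. ISG20, which is not part of the conjugation chain, is counted among the 6. The log2 fold change was positive for 6 of 6 measured genes, from 0.20 for UBA7 to 1.11 for ISG15, with a median of 0.64; the median of all rows was 0.02, and 54.4% of rows were above 0. Over all rows 0 of 6 were called by limma, where 15 rows were (0.0681%; 5 without GFP replicate 2 and 8 without GFP replicate 3). At an unadjusted p under 0.05 there were 4 of 6, ISG15, UBE2L6, HERC6 and ISG20, against 5.04% of rows. In the same 4 genes all 3 hairpin arrays lay above all 3 GFP arrays, which was so for 4.71% of rows. These genes were chosen with earlier results of these data known, so the counts describe the group and do not test it. In bulk RNA, a higher level in every cell and a strong rise in a few cells cannot be told apart.

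ISG15, the modifier itself, had log2 values of 3.35, 3.69 and 3.82 in GFP replicates 1, 2 and 3. With the hairpin they were 5.03, 4.58 and 4.58. Full-length MED12 gave 4.46, 4.52 and 3.99, and the PQL/Opa-deleted construct 3.98, 3.84 and 3.92. The hairpin arrays were highest and the GFP arrays lowest, and no 2 of the 4 groups overlapped, though the gaps between neighbouring groups were small: 3.82 against 3.84 between GFP and the PQL/Opa-deleted construct, 3.98 against 3.99 between this construct and full-length MED12, and 4.52 against 4.58 between full-length MED12 and the hairpin. The share of all rows in which no 2 of the 4 groups overlapped was not counted. Against GFP, ISG15 was 2.16-fold higher with the hairpin (95% interval 1.60 to 2.91; log2 fold change 1.11 ± 0.20, SE; limma, adjusted p = 0.126), the 23rd row of 22011 by p-value. Its unadjusted p was 1.32e-04, and the largest among the 15 called rows was 3.20e-05. The log2 fold change was 0.83 without the 3 narrowest arrays, among them the lowest GFP value and the highest hairpin value (limma, adjusted p = 0.562); over 19 alternative fits its adjusted p ran from 0.0739 to 1.00, with 0 calls.

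The same gene had a smaller difference from GFP with the MED12 constructs. With full-length MED12 its log2 fold change was 0.70 ± 0.20 (SE), 1.63-fold with a 95% interval of 1.21 to 2.20 (limma, unadjusted p = 0.00414, and 1.00 after adjustment). For the PQL/Opa-deleted construct the value was 0.29 ± 0.20 (SE), with an interval of the log2 value from -0.14 to 0.72 (limma, adjusted p = 1.00). The order of the group means was therefore hairpin, full-length, PQL/Opa-deleted and GFP. No neighbours in it differed by a called amount: the hairpin exceeded full-length MED12 by 0.41 (interval -0.03 to 0.84; limma, adjusted p = 0.697), and full-length MED12 exceeded the PQL/Opa-deleted construct by 0.41 (interval -0.02 to 0.84; limma, adjusted p = 1.00). Of the hairpin and the PQL/Opa-deleted construct, further apart in the order, the difference was 0.82 ± 0.20 (SE; limma, adjusted p = 0.482).

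**Figure D2:**
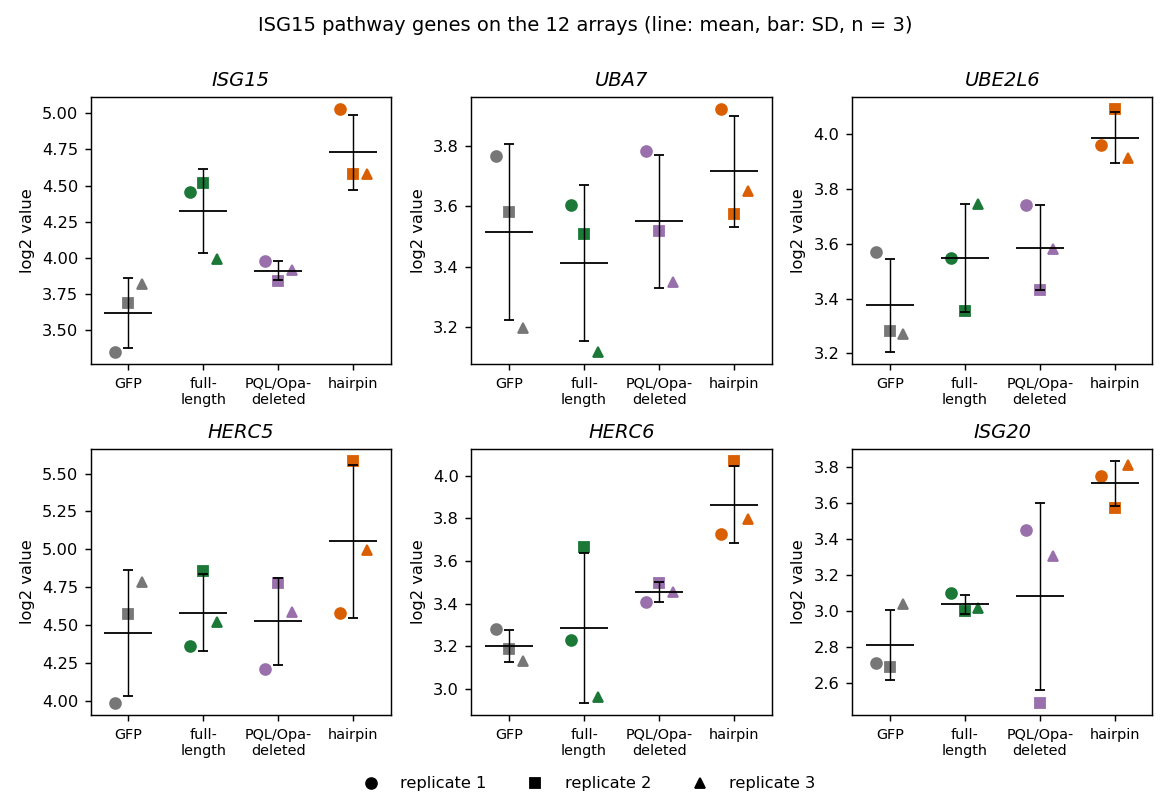
Log2 values of the 6 measured genes (1 panel each, own vertical scale) in the 4 groups; symbols mark replicates 1 to 3, lines the group mean and bars the SD (n = 3). The hairpin arrays lie above all GFP arrays for ISG15, UBE2L6, HERC6 and ISG20, and overlap them for UBA7 and HERC5.

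UBA7, the E1 that activates ISG15, was the gene with the smallest hairpin difference. GFP arrays read 3.77, 3.58 and 3.20, and hairpin arrays 3.92, 3.58 and 3.65. The groups overlapped, with 1 of 3 hairpin arrays above all GFP arrays. The log2 fold change was 0.20 ± 0.20 (SE), with an interval from -0.24 to 0.64, so a rise of up to 1.56-fold and a fall are both within the error (limma, adjusted p = 1.00). It was 0.04 without GFP replicate 3 and 0.33 without GFP replicate 1. It was -0.10 with full-length MED12, where arrays read 3.61, 3.51 and 3.12, and 0.04 with the PQL/Opa-deleted construct, where they read 3.78, 3.52 and 3.35. In all 4 groups replicate 1 was the highest array for UBA7.

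UBE2L6, the E2 of the chain, read 3.57, 3.28 and 3.27 with GFP and 3.96, 4.09 and 3.91 with the hairpin. The hairpin group was tight, with an SD of 0.09, and lay wholly above GFP. It was 1.53-fold higher (95% interval 1.20 to 1.95; log2 fold change 0.61 ± 0.16, SE; limma, unadjusted p = 0.00268, adjusted p = 0.692). Full-length MED12 gave 3.55, 3.35 and 3.75 and the PQL/Opa-deleted construct 3.74, 3.43 and 3.58, each overlapping GFP, with log2 fold changes of 0.17 and 0.21. The hairpin arrays also lay above all arrays of both constructs, by 0.44 (limma, adjusted p = 0.606) over full-length MED12 and 0.40 (adjusted p = 0.679) over the PQL/Opa-deleted construct. How many of all rows stood apart from the constructs in this way was not counted.

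The ligases HERC5 and HERC6 differed in how tightly their replicates lay. HERC5 read 3.98, 4.57 and 4.78 with GFP and 4.58, 5.58 and 5.00 with the hairpin. These groups overlapped, and replicate 1 was the lowest array in all 4 groups. The log2 fold change was 0.61 ± 0.28 (SE), with an interval from -0.01 to 1.23 (limma, adjusted p = 0.996). In a fit with the replicate number as a block the SE was 0.17, and HERC5 was not called there either (limma, adjusted p = 0.339). The log2 fold change was 0.34 without hairpin replicate 2, the highest HERC5 array of the 12. With full-length MED12 HERC5 read 4.37, 4.86 and 4.52 and with the PQL/Opa-deleted construct 4.21, 4.78 and 4.59, both overlapping GFP; the log2 fold changes were 0.13 and 0.08, and each is below 0 without GFP replicate 1 (-0.10 and -0.15).

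HERC6 had a lower spread than HERC5 except with full-length MED12 (SD 0.35 against 0.25), and a hairpin difference of like size. It read 3.28, 3.19 and 3.13 with GFP and 3.73, 4.07 and 3.80 with the hairpin, with no overlap. That is 1.59-fold (95% interval 1.20 to 2.09; log2 fold change 0.66 ± 0.18, SE; limma, unadjusted p = 0.00368, adjusted p = 0.758). Under the PQL/Opa-deleted construct HERC6 read 3.41, 3.50 and 3.45, also above all 3 GFP arrays, at 0.25 ± 0.18 (SE; limma, adjusted p = 1.00). Full-length MED12 gave 3.23, 3.66 and 2.96, the widest HERC6 group, around and on both sides of GFP. The hairpin lay above full-length MED12 by 0.58 (limma, adjusted p = 0.561) and above the PQL/Opa-deleted construct by 0.41 (adjusted p = 0.689), without overlap in either case. Here too the share of all rows without such overlap was not counted.

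ISG20, the exonuclease, had the second largest hairpin difference. It read 2.71, 2.69 and 3.04 with GFP and 3.75, 3.57 and 3.81 with the hairpin, again without overlap. The fold was 1.86 (95% interval 1.32 to 2.64; log2 fold change 0.90 ± 0.23, SE; limma, unadjusted p = 0.00216, adjusted p = 0.668). Full-length MED12 gave a narrow group at 3.10, 3.00 and 3.02, of which replicates 2 and 3 fell within the GFP range. The PQL/Opa-deleted construct gave 3.45, 2.49 and 3.31, with replicate 2 below every GFP array; its log2 fold change of 0.27 ± 0.23 (SE) was 0.57 without that array and 0.08 without replicate 1. The hairpin arrays lay above all arrays of both constructs, by 0.67 (limma, adjusted p = 0.585) and 0.63 (adjusted p = 0.668). The latter difference was 0.33 without PQL/Opa-deleted replicate 2. As for UBE2L6 and HERC6, the share of all rows that stood apart from the constructs was not counted.

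Among the GFP means of all rows, that of ISG20 lay at percentile 26.6, HERC6 at 40.6, UBE2L6 at 47.7, UBA7 at 53.8, ISG15 at 58.2 and HERC5 at 80.5. These ranks are across probes of differing brightness and order no genes by amount. Without detection calls it is unknown whether a probe lay above background in the GFP arrays, and the sizes of the folds are uncertain.

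**Figure D3:**
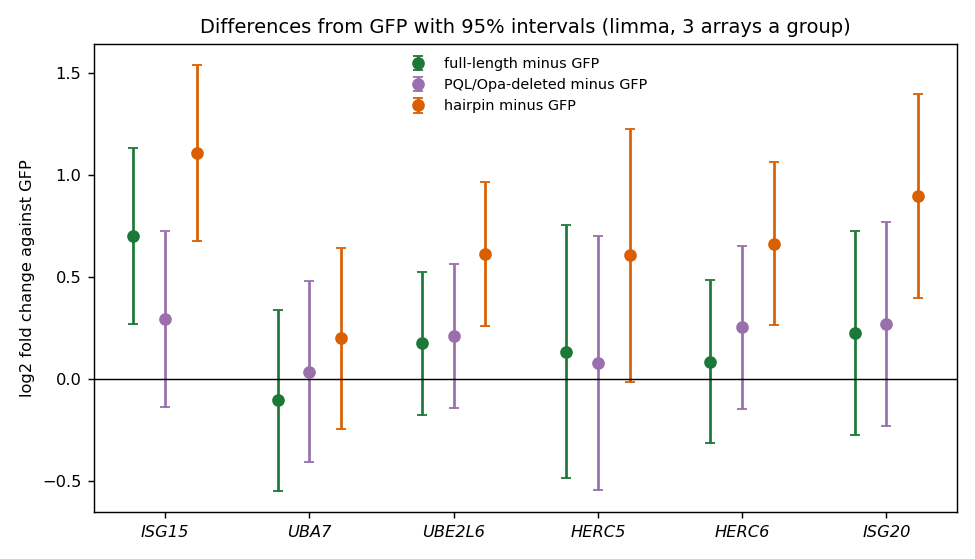
Log2 fold changes against GFP (points) with 95% intervals (bars) for the 6 measured genes and 3 comparisons, which share the same 3 GFP arrays. The hairpin intervals of ISG15, UBE2L6, HERC6 and ISG20 lie above 0, as does that of ISG15 with full-length MED12; the intervals are not adjusted for the number of rows, and no difference is called.

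Under the 2 MED12 constructs the medians of these genes were nearer to GFP than under the hairpin. For full-length MED12 the log2 fold change was above 0 in 5 of 6 genes, with a median of 0.15 (all rows: -0.01). Limma called 0 of 6, against 3 rows of 22011 (0.0136%); at an unadjusted p under 0.05 there was 1, ISG15, against 2.8% of rows, and the groups stood apart upwards in 1, again ISG15, against 4.03% of rows. With the PQL/Opa-deleted construct 6 of 6 were above 0, with a median of 0.23 (all rows: -0.01). Limma called 0 of 6 here too, where 1 row was called (0.00454%), with 0 at an unadjusted p under 0.05 (3.46% of rows) and 2, ISG15 and HERC6, wholly above GFP (4.13% of rows). All 3 comparisons use the same GFP arrays, so a low GFP array moves them together.

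Set directly against the constructs, the hairpin arrays gave positive differences in 6 of 6 genes both times. The median was 0.46 over full-length MED12 and 0.47 over the PQL/Opa-deleted construct. Limma called 0 of 6 in either comparison, where 23 rows (0.104%) and 7 rows (0.0318%) were called. At an unadjusted p under 0.05 there were 3 of 6 over full-length MED12, UBE2L6, HERC6 and ISG20, against 7.17% of rows. Over the PQL/Opa-deleted construct there were 4 of 6, these and ISG15, against 7.16% of rows. Between the constructs 0 of 6 were called (0.00454% of rows) and 0 had an unadjusted p under 0.05 (1.9% of rows); the largest difference was that of ISG15 at 0.41, and the other 5 lay between -0.17 and 0.06.

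The wider system was counted in gene lists. Over all rows with the hairpin, 0.0681% were called, 5.04% had an unadjusted p under 0.05 and 54.4% were above 0. Among 8 measured enzymes of 9 listed that attach ISG15, remove it or react with it, 0 were called with the hairpin, in either direction, and 3 of 8 were above 0, with a median of -0.06 (1 at an unadjusted p under 0.05, TRIM25). TRIM25, a ligase for ISG15 and for the RNA sensor RIGI, stood at 0.71 ± 0.23 (SE, limma, adjusted p = 0.859). All its hairpin arrays lay above all GFP arrays, as in 4.71% of rows. After quantile normalization it was 0.85 and was called (limma, adjusted p = 0.0458), which was 1 call in 19 alternative fits. The proteases USP24, USP5 and USP16, which can act on ISG15 or its probes in addition to ubiquitin, had -0.35, 0.19 and -0.42 (limma, adjusted p = 1.00 each). For USP24 all hairpin arrays lay below all GFP arrays. When 1 array was left out USP16 ran from -0.81 (GFP replicate 1) to -0.02 (hairpin replicate 1) and USP5 from 0.09 to 0.35 (hairpin replicates 2 and 1). Of 15 listed paralogues of the members that serve ubiquitin or other tasks, 7 were measured. Of these, 0 were called (0 at an unadjusted p under 0.05), 2 were above 0 and the median was -0.06. UBA6, another E1 enzyme, had -0.26, with all hairpin arrays below all GFP arrays, and HERC4 had -0.35. The share of all rows with hairpin arrays wholly below GFP, as in USP24 and UBA6, was not counted.

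Other ubiquitin-like systems use the same order of E1, E2 and E3. Of 17 rows for 16 of 23 listed genes of SUMO, NEDD8, UFM1 and ATG conjugation 0 were called with the hairpin (0 at an unadjusted p under 0.05), 4 were above 0 and the median was -0.02. ATG10, the E2 of the ATG12 system, had -0.25, with all hairpin arrays below all GFP arrays, a separation whose share over all rows was not counted. SENP8, the NEDD8 protease, had 0.40. With full-length MED12 and the PQL/Opa-deleted construct 0 rows of these 3 lists were called as well. At an unadjusted p under 0.05 there were 0, 1 and 1 for the former (all rows: 2.8%). For the latter there were 0, 2 and 0 (all rows: 3.46%). The medians of the ISG15 genes and of these relatives are set side by side as a description; the difference between the lists was not tested.

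Upstream of the ISG15 genes, 8 of 10 listed genes for the interferon receptor, its kinases and its transcription factors had a row of their own. With the hairpin 0 of 8 were called (all rows: 0.0681%) and 1 had an unadjusted p under 0.05 (all rows: 5.04%). Of the 8, 7 were above 0 (all rows: 54.4%) and the median was 0.10. IRF3, which carries the signal from nucleic acid sensors, had 0.35 ± 0.13 (SE, limma, unadjusted p = 0.0220, adjusted p = 0.958), and IRF7 had 0.23. For both, all hairpin arrays lay above all GFP arrays, as in 4.71% of rows. Of 21 interferon genes 9 had a row of their own, 0 were called (1 at an unadjusted p under 0.05), 8 were above 0 and the median was 0.16. IFNA6 had 0.80 with the hairpin and 1.27 with full-length MED12 (limma, adjusted p = 0.983 and 1.00), from a GFP mean of 2.48 ± 0.56 (SD, n = 3), and IFNW1 had 0.28 from 1.85 ± 0.21. Without the 3 narrowest arrays the hairpin value of IFNA6 was 0.36, and without hairpin replicate 3 that of IFNW1 was 0.04. Over the 9 interferon genes the median was -0.18 for full-length MED12, with 3 above 0. The PQL/Opa-deleted construct had a median of -0.14, with 2 above 0. Limma called 0 in both. Full-length MED12 had 2 at an unadjusted p under 0.05 (all rows: 2.8%), and the PQL/Opa-deleted construct had 1 (all rows: 3.46%).

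Of 20 listed symbols of proteins known to be modified or bound by ISG15, 13 had a row of their own. RIGI is listed under both its present and its former symbol, so the list holds fewer genes than symbols. With the hairpin 1 was called (all rows: 0.0681%), IFIT1, an RNA-binding antiviral protein. At an unadjusted p under 0.05 there were 4 (all rows: 5.04%), IFIT1, MX1, RIGI and IRF3. List genes were named by their p-values, so all 4 were named after their values were seen, RIGI beyond the number set per list. RIGI had 1.74 ± 0.29 (SE, limma, adjusted p = 0.0884) and was not followed through the alternative fits. The log2 value of IFIT1 was 4.65 ± 0.19 with GFP and 6.89 ± 0.50 with the hairpin (SD, n = 3). This was 2.24 ± 0.27 above GFP on the log2 scale (SE, limma, adjusted p = 0.00985). The call was lost in a fit of the hairpin and GFP arrays alone (adjusted p = 0.165), without GFP replicate 1 (0.0506) and without GFP replicate 2 (0.0746). MX1, an antiviral GTPase, had 1.20 ± 0.20 (SE, limma, adjusted p = 0.0762). It was called after quantile normalization (1.22, adjusted p = 0.0328) and among the rows at or above the median mean (adjusted p = 0.0455). These were 2 calls in 19 alternative fits, in which its limma adjusted p reached 0.966. Of these 13 genes 10 were above 0 (all rows: 54.4%) and the median was 0.23. Several are interferon-stimulated themselves. For partners of USP18 and other brakes on interferon signalling, 6 of 7 measured, 0 were called (0 at an unadjusted p under 0.05) and the median was 0.07, with SKP2, a ubiquitin ligase subunit, at -0.38 and SOCS1, a kinase inhibitor, at 0.34.

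**Figure D4:**
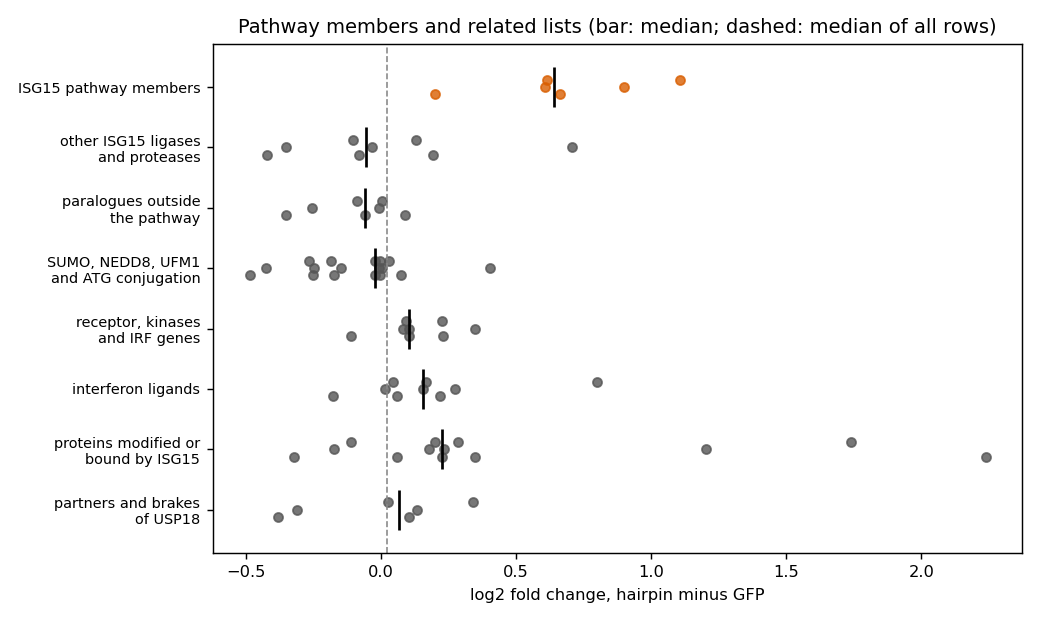
Log2 fold changes of single genes (points), hairpin minus GFP, for the 6 measured ISG15 pathway genes (ISG20 included) and 7 related lists. Bars mark the list medians and the dashed line the median of all rows (0.02). The median of the ISG15 genes is 0.64 and those of the lists lie between -0.06 and 0.23; IRF3, JAK1 and IFNAR2 are in more than 1 list.

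For each gene the 3 other rows with 1 symbol whose values followed it most closely over the 12 arrays were named, by Pearson's r over 14431 rows. These are descriptions: the arrays share groups, replicate numbers and differing spreads of values, and the highest of many correlations is high in any case. UBE2L6 was closest to IFITM1 (r = 0.927), a membrane protein that blocks virus entry, APOL6 (0.911) and NMI (0.895). HERC6 was closest to IFI44L (0.900), SAMD9 (0.898) and IFIH1 (0.887), the last of which encodes the RNA sensor MDA5. HERC5 was closest to C2CD5 (0.933), SLFN5 (0.912) and TRIM25 (0.908). Of the genes nearest to UBE2L6 and HERC6, IFITM1, NMI and SAMD9 were called with the hairpin, at 1.80, 1.58 and 1.49 (limma, adjusted p = 0.0106, 0.00437 and 0.00437). In a fit of the hairpin and GFP arrays alone these calls were lost (adjusted p from 0.148 to 0.197), and that of IFITM1 also without GFP replicate 2 or 3. IFIH1 was not called (limma, adjusted p = 0.105) but was after quantile normalization (0.00584), with the replicate number as a block (0.0260) and without hairpin replicate 1 (0.0497). IFI44L was not called either (limma, adjusted p = 0.141) but was without hairpin replicate 1 (0.0497). These were 3 calls for IFIH1 and 1 for IFI44L in 19 alternative fits each. The limma adjusted p of each gene reached 0.813 there.

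The genes nearest to ISG15 were H2AZ2 (0.886), KLF12 (0.866) and CLN6 (0.864), none of them called with the hairpin, at 0.17, 0.36 and 0.45. ISG20 was nearest to MVB12B (0.927), CAPN5 (0.877) and GAS1 (0.872), with hairpin differences of 0.41, 0.31 and 0.47. UBA7 was nearest to PPP1R3A (0.938), MYBPH (0.937) and ZIC4 (0.933), whose hairpin differences were all at most 0.13.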

How the data were processed

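RNA of the 12 samples was amplified, labelled with biotin and read on 1-colour arrays. The deposited values are log2 values, 1 per row and array; Partek, RMA and hg18 are named in the submitters' processing notes, while on versions, filters, the background option and the probe set level the sources used here give nothing. They were used as deposited, with 0 value columns left out, no further normalization and no filter. Symbols came from the platform's annotation table: 14432 rows have 1 symbol, 2408 several and 5171 none. The Entrez identifiers of all 6 measured genes were found in the RefSeq gene table. Positions given are those of the GRCh38.p14 promoter table, not of the arrays' build.

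With limma 3.58.1 (R 4.3.3), 4 group means were estimated from the 12 arrays together (lmFit, eBayes without trend; 8 residual and 3.52 prior degrees of freedom), tested two-sided with Benjamini-Hochberg adjustment over 22011 rows. Intervals are unadjusted 95% intervals of that fit. Precision is limited by the number of arrays, with a standard error of 0.23 for the median row. With 3 arrays on each side, the smallest p of an exact permutation test is 0.1; it was reached by ISG15, UBE2L6, HERC6 and ISG20 for hairpin and GFP. The labels call the replicates biological and do not say more of their origin. The genes and lists were chosen with earlier results of these data known. Named were the 7 genes, MED12, called list members, the 4 list members with the smallest hairpin p in the list of ISG15 enzymes and 2 in each other list, and 3 like genes per member. USP41 was to be named as a near copy of USP18 and had no row of its own.

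Same-numbered arrays deviated together (correlation over 0.1 in 3 of 3 pairs) for GFP with full-length MED12 (0.101 to 0.229) and with the PQL/Opa-deleted construct (0.149 to 0.472). For GFP with the hairpin 2 of 3 pairs passed this limit (0.022 to 0.464). The lowest value with full-length MED12 was only just over the limit, so the comparisons are not sharply divided by it. The labels do not say what a number marks. Alternatives were quantile normalization, scaling of arrays, a filter on low rows, a trend, fits of 2 groups, the replicate block and leaving out arrays.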

Additional observations from a re-analysis of the deposited data

Results flagged for a closer look

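Row 3936550 lies outside the rows with 1 symbol, so it stands in no count above. It is annotated to both USP18 and USP41P and cannot be assigned to either. All 3 hairpin arrays (4.35, 4.02 and 4.21) lay above all 3 GFP arrays (3.87, 3.997 and 3.38), by 0.44 ± 0.20 on the log2 scale (SE; limma, adjusted p = 0.987). With full-length MED12 the row read 3.25, 2.95 and 3.36, below every GFP array, at -0.56 ± 0.20 (SE; limma, unadjusted p = 0.0170, adjusted p = 1.00), while ISG15 stood above GFP there. The PQL/Opa-deleted construct gave 3.96, 3.55 and 3.83, a difference of 0.03. The hairpin lay above full-length MED12 by 1.00 ± 0.20 (SE; limma, adjusted p = 0.163). No difference was called. Over all rows, 4.71% had all hairpin arrays above all GFP arrays. The share below all GFP arrays with full-length MED12 was not counted.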

How the results depend on the processing

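Over all alternatives tried, 0 of the 6 genes were called in any of the 6 comparisons. With the hairpin, against GFP and against each construct, 0 of 113 refitted values per comparison changed sign. Against GFP the count of rows called with the hairpin was 15; it was 23 after quantile normalization, 4 with only the 2 groups and from 5 (without GFP replicate 2) to 20 when 1 array was left out. With the replicate number as a block the PQL/Opa-deleted comparison had 2 called rows in place of 1; the block changed no call among the 6 genes. The median of the genes ran from 0.56 to 0.79 with the hairpin when 1 array was left out. Without the 3 narrowest arrays the median with the PQL/Opa-deleted construct was 0.085, against 0.23. Sign changes were seen only in differences that were small as reported. Without the 3 narrowest arrays they were 0.022 for UBA7 and -0.097 for HERC5 with full-length MED12, -0.00134 for row 3936550 with the PQL/Opa-deleted construct and, between the constructs, 0.042 for UBE2L6, -0.10 for HERC5 and 0.14 for ISG20. With 1 array left out, the range with full-length MED12 was -0.26 to 0.042 for UBA7, -0.097 to 0.30 for HERC5 and -0.10 to 0.25 for HERC6. For the PQL/Opa-deleted construct the range was -0.12 to 0.16 for UBA7, -0.15 to 0.25 for HERC5 and -0.16 to 0.15 for row 3936550. Between the constructs it was -0.24 to 0.0070 for UBA7, -0.14 to 0.061 for UBE2L6, -0.10 to 0.18 for HERC5 and -0.34 to 0.14 for ISG20. For the hairpin it was -0.13 to 0.40 for PPP1R3A, -0.057 to 0.204 for MYBPH and -0.093 to 0.201 for ZIC4. The causes were not tested. ISG20 has no value in the fit of rows at or above the median mean, which it does not reach.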
